A study of Mus musculus and Callithrix jacchus with 22 samples.

Results

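The neuropeptide Y interneurons described here were the cells that carried the type name Inh_Npy in the mouse cell table or Inh_NPY in the marmoset cell table. They numbered 449 mouse cells and 330 marmoset cells, 779 of the 35064 cells of the series. In mouse they were drawn from 2603 interneurons and 15918 neurons among 19145 cells. In marmoset they were drawn from 3127 interneurons and 6926 neurons among 15919 cells. The mouse cells came from P7 (184 cells) and P21 (265 cells) and none carried the name at P1, whereas every marmoset cell came from newborns and none from adults.

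Neuropeptide Y is a peptide that part of the inhibitory interneurons of the cortex release together with GABA. In the mouse cortex it is made above all by neurogliaform cells, which inhibit their neighbors slowly and over a wide field, and by a portion of the somatostatin interneurons. Mouse interneurons are born in the ventral forebrain, migrate into the cortex mostly before birth and mature there over the first postnatal weeks.

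Chromatin accessibility was profiled in single cells by scATAC-seq, in which the transposase Tn5 cuts and tags open DNA, to ask how regulatory programs of cortical neurons change with age in these species. Mouse libraries held combined motor and somatosensory cortex of wild-type C57BL/6 mice aged 1, 7 or 21 days after birth (4 libraries each of P1, P7 and P21) and were made by combinatorial indexing on plates. Marmoset libraries held wild-type cortex, somatosensory by the labels and somatosensory and motor by the methods, of newborns (Day0, 5 libraries) and of adults labelled Y7 (2 libraries) or Y8 (3 libraries), from cells sorted as live, and were made with a droplet kit. At each mouse age, 2 libraries had dotted numbers in their titles (the numbered libraries) and 2 had the word Pool (the Pool libraries). The labels add a protocol that sorts tdTomato-labeled projection neurons, while the study speaks of tissue that was not fractionated, and any such sort would bear on the Npy share of neurons. What separates the series is not stated, nor is the number of animals behind a library, so the p-values measure the spread between libraries, which may be technical. Species and library chemistry went together and cannot be told apart, so the species are set side by side without a test.

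The values available for each cell were its reads and its accessible peaks, that is, the number of peaks holding a read. No gene-level values were used here, so accessibility at the marker gene Npy was not checked and the type names are the authors' own. The P7 libraries held 1431 to 1784 cells, the P21 libraries 1321 to 3407 and the Day0 libraries 1613 to 1814. Of the 449 mouse Npy cells, 223 (49.7%) had a barcode that also occurred in another mouse library, close to the 47.7% of all mouse cells. Only 6 of the 223 met a cell in the other library that was also named Npy. In marmoset 7 of 330 NPY cells (2.12%) shared a barcode, and 0 met another NPY cell. Whether a shared barcode marks a reused label or the same cell is not known. Sharing stayed within 3 sets of 4 mouse libraries that cut across ages and series, and only 1 set held both P7 and P21 libraries: the second numbered and second Pool library of P7, and the first of each at P21. The comparisons were repeated with the cells whose barcode occurred in 1 library, and within that set. Per the methods, libraries had been sampled to a similar depth per cell before the tables were made, so reads per cell compare libraries after that step, and its part in the differences between libraries and ages was not tested.

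The Npy cells were a minority of the mouse interneurons at both ages. At P7 they were 28.8% and 24.3% of the interneurons in the numbered libraries, and 20.7% and 24.7% in the Pool libraries. At P21 they were 26.5% and 29.7% in the numbered libraries, and 29.2% and 26.9% in the Pool libraries. The lowest library was a P7 library, the highest a P21 library, and the ages overlapped. The mean was 24.6% ± 3.29 at P7 and 28.1% ± 1.63 at P21 (SD, n = 4), a difference of 3.46 percentage points that did not pass the test (exact two-sided permutation test, p = 0.114, adjusted p = 0.305 over 8 comparisons). The exact rank-based 97.1% interval of the difference ran from -2.30 to 8.97 points. Within the barcode set that held both ages the difference was 3.39 points. With the 36 to 102 Npy cells of a mouse library, the 95% exact binomial interval of a single share was wide, from 15.8% to 26.4% for the lowest library, and such intervals cover counting error only.

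**Figure D1:**
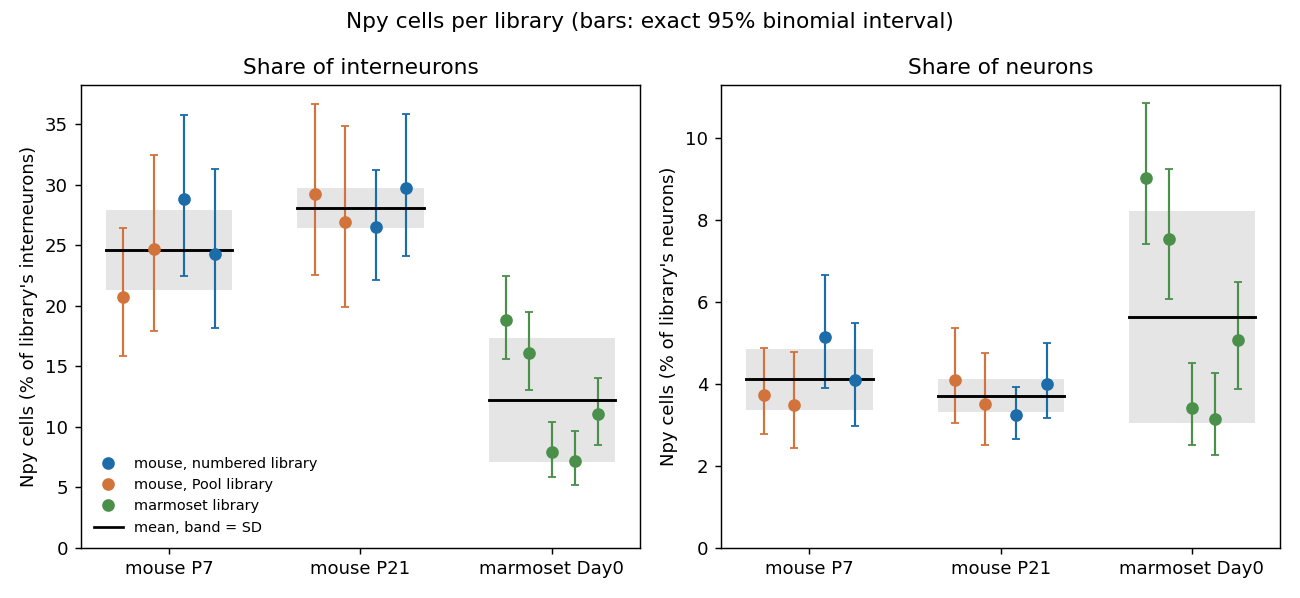
Npy cells as a percentage of the interneurons (left) and of all neurons (right) of each library, in mouse P7, mouse P21 and marmoset Day0. Points are libraries with their exact 95% binomial intervals, black lines are group means and gray bands are 1 SD. P7 and P21 overlap in both panels, and Day0 libraries 1 and 2 lie above Day0 libraries 3 to 5.

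What counted as an interneuron differed between the mouse ages. At P7 the only other named interneurons were somatostatin cells (Inh_Sst, 571 cells, cluster 6). The P1 cells of that cluster carried another name, Inh_MGE (347 cells). At P21 the other named interneurons were 359 somatostatin cells, placed in another cluster (cluster 17), and 326 parvalbumin cells (Inh_Pval, cluster 19), a fast-spiking type that carried no name at P7. Cluster 11, named Inh_CGE at P1 (551 cells), held 57 P7 and 16 P21 cells. Those later cells were all unassigned and so were not counted as interneurons. Set against somatostatin cells alone, the Npy share of the pair was 28.8%, 24.3%, 20.7% and 24.7% at P7. It was 38.6%, 46.0%, 45.5% and 43.8% at P21, so each P21 library lay above each P7 library. This denominator was chosen after the values were seen, and at P7 it is the same as all interneurons. Whether the somatostatin name covered the same kind of cells at both ages was not tested, so the pair may not compare like with like. The means of 24.6% ± 3.29 and 43.5% ± 3.35 (SD, n = 4) differed by 18.8 points (exact permutation test, p = 0.0286, the smallest that 4 against 4 libraries allow), with an adjusted p of 0.152 by the same exact test. When unassigned mouse cells were added to the interneuron denominator, the Npy share was 9.53% at P7 and 21.2% at P21. The difference of 11.7 points had a p of 0.0286 by the same exact permutation test and an adjusted p of 0.152. However, only 4945 of 6127 cells carried a name at P7, against 7880 of 8152 at P21. Of the unassigned P7 cells, 834 lay in cluster 9. This difference therefore also holds the difference in unnamed cells of unknown type.

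Of all neurons, the Npy cells were a small part at both mouse ages. At P7 they were 5.15% and 4.10% of neurons in the numbered libraries, and 3.73% and 3.47% in the Pool libraries. At P21 they were 3.24% and 4.01% in the numbered libraries, and 4.10% and 3.51% in the Pool libraries. The highest and the lowest of the 8 values both came from a first numbered library, at P7 and P21, respectively, and the ages overlapped. The mean was 4.11% ± 0.741 at P7 and 3.71% ± 0.409 at P21 (SD, n = 4), a difference of -0.401 points that did not pass the exact permutation test (p = 0.457, adjusted p = 0.555). The 97.1% interval ran from -1.92 to 0.623 points, and within the barcode set the difference was -0.119 points. The direction turned to a P21 excess of 0.202 points in the Pool libraries alone, and of 0.234 points when cells below the median of 3444 reads were left out. Of all annotated cells, glia included, Npy cells were 3.73% ± 0.624 at P7 and 3.42% ± 0.379 at P21 (SD, n = 4; exact permutation test, adjusted p = 0.555).

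In newborn marmoset the NPY share ranged widely between libraries. NPY cells were 18.8%, 16.1%, 7.92%, 7.18% and 11.03% of the interneurons in Day0 libraries 1 to 5. Of all neurons they were 9.03%, 7.54%, 3.40%, 3.14% and 5.06%. Libraries 1 and 2 were the highest on both counts, and libraries 3 and 4 the lowest. The binomial intervals of libraries 1 and 2 (15.6% to 22.4% and 13.1% to 19.5% of interneurons) did not meet those of libraries 3 and 4 (5.85% to 10.4% and 5.18% to 9.65%). The mean over libraries 1 and 2 was 17.5% of interneurons, against 8.71% over libraries 3 to 5, a split made after seeing the values and therefore not tested. Over all 5 libraries the mean was 12.2% ± 5.10 of interneurons and 5.64% ± 2.58 of neurons (SD, n = 5). Type counts showed no difference between libraries 1 and 2 (chi-square test, p = 0.362) or 3 and 4 (p = 0.411), which does not show that they were alike. With each pair counted as 1 the means were 12.0% ± 5.03 and 5.54% ± 2.54 (SD, n = 3). Against somatostatin cells alone, NPY cells were 45.5%, 37.6%, 23.96%, 22.7% and 30.9% of the pair, in the same order of libraries.

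Beside these values, the mouse means were 24.6% (P7) and 28.1% (P21) of interneurons and 4.11% and 3.71% of neurons. Marmoset interneurons were named in 4 types at Day0 (NPY, parvalbumin, somatostatin and Vip), against 2 types at P7 and 3 at P21, so shares of interneurons had different denominators in the species.

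In adult marmoset 0 of 395 interneurons and 0 of 901 neurons were named NPY. For counting error over the pooled cells, a count of 0 allows up to 0.759% of interneurons and 0.333% of neurons to carry the name. Names were given to whole clusters, however. Per the study's methods, clusters under 100 cells were removed, and the smallest named adult cluster held 110 cells. At the mean Day0 share only 48.2 of the adult interneurons would have been NPY cells, so the count of 0 sets no limit on how many NPY cells the adult cortex held.

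All mouse Npy cells belonged to cluster 13, and at P7 and P21 all cells of cluster 13 were named Npy. All marmoset NPY cells belonged to cluster 16 of Day0. Cluster 13 also held 53 P1 cells, all of them named Unknown. Those cells numbered 27 and 14 in the numbered P1 libraries, and 7 and 5 in the Pool P1 libraries. The smallest cluster with a name held 129 cells in P1, 128 in P7 and 102 in P21 libraries. Each of the 6 unnamed clusters of P1 and each of the 8 of P21 held fewer than 100 cells, and so did 10 of the 11 of P7, the exception being cluster 9 with 834 cells. Per the study's methods, clusters were split by time point and those under 100 cells were removed. The P1 cells of cluster 13 numbered fewer than that limit, and fewer than the smallest P1 cluster that was given a name.

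Followed by cluster number, the Npy cluster was smaller at P1 than later. It was 1.28% and 1.48% of all cells in the numbered P1 libraries, and 0.784% and 0.549% in the Pool P1 libraries. The P7 libraries ranged from 2.51% to 3.73% and the P21 libraries from 2.95% to 3.69%, so that no P1 library reached the lowest P7 or P21 library. Mean shares were 1.02% ± 0.429 for P1, 3.01% ± 0.521 for P7 and 3.29% ± 0.373 for P21 (SD, n = 4). P7 exceeded P1 by 1.99 points, 2.95-fold, and P21 exceeded P1 by 2.27 points, 3.22-fold (exact permutation test, p = 0.0286 and adjusted p = 0.0429 each, over 3 pairs of ages). P21 and P7 did not differ beyond their spread (0.279 points, exact permutation test, adjusted p = 0.486). Within the barcode sets that held the ages compared, the differences from P1 were 2.25 points for P7 and 2.29 points for P21. This comparison was added after the data were seen.

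**Figure D2:**
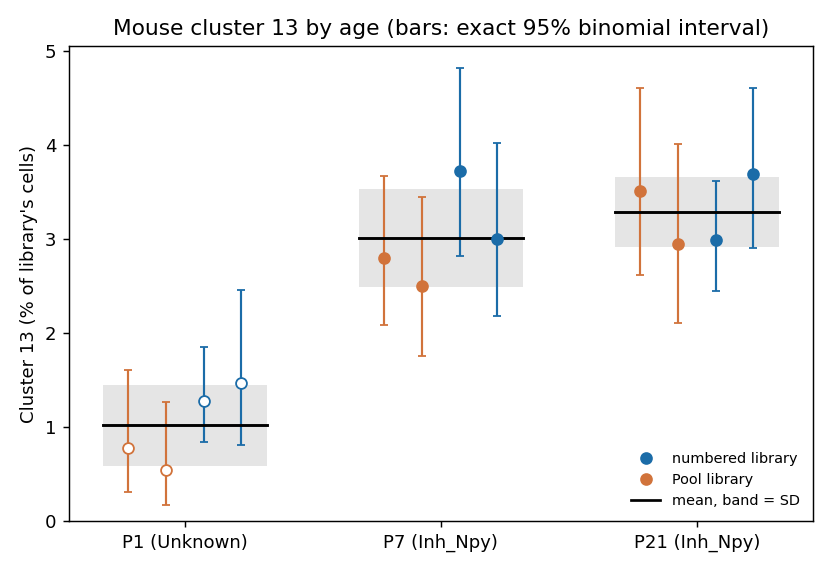
Cells of mouse cluster 13 as a percentage of all cells of each library at P1, P7 and P21, with exact 95% binomial intervals, the group mean (line) and 1 SD (band). Open points are P1 libraries, where the cluster carried no name, and all 4 lie below the P7 and P21 libraries.

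The difference from P1 depended on which cells were kept. Without the cells below the median of 3444 reads it was 0.623 points for P7 (exact permutation test, adjusted p = 0.200) and 1.07 points for P21 (adjusted p = 0.171), below the sizes over all cells. Without the cells below the median of 1528 peaks it was 1.54 and 2.06 points, and both passed (exact permutation test, adjusted p = 0.0429). That cut lay above the median peaks of all cells in every P1 library (699 to 1114). The library medians were 1332.5 to 1843 at P7 and 1969 to 2165 at P21. The peak cut thus fell hardest on the P1 libraries, and passing under it is no further check of the difference. The numbered P1 libraries also stood apart in peaks per read, with medians over all their cells of 171 and 107 peaks per 1000 reads, against 578 in both Pool P1 libraries and 521 to 555 at P7. With the first or the second of these libraries left out, the differences were 2.07 and 2.14 points for P7 and 2.35 and 2.42 points for P21, all past the test (exact permutation test, adjusted p = 0.0429). In the Pool libraries alone they were 1.99 and 2.57 points, and 2 against 2 libraries cannot pass. The cluster 13 cells of the numbered P1 libraries had medians of 176 and 107 peaks per 1000 reads, like the libraries they came from.

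The Npy cells had fewer reads than the other neurons of every P7 and P21 library. Their median reads per cell at P7 were 1846 and 2075 in the numbered libraries, and 1500.5 and 1821.5 in the Pool libraries. Other neurons of those libraries had medians of 3585 and 3671, and of 2777 and 3711. Every P7 library had fewer reads in its Npy cells than any P7 library had in its other neurons. At P21 the Npy medians were 2577.5 and 2248.5 in the numbered libraries, and 2025 and 2978 in the Pool libraries. The other neurons had 4168 and 4038, and 3994 and 4070, again with no overlap.

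Within a library, Npy cells had 0.561-fold the reads of the other neurons (mean of log2 ratios -0.83 ± 0.19, SD, n = 8 libraries). The ratio was lower than 1 in 8 of 8 libraries, from 0.491 to 0.732 (exact two-sided sign-flip permutation test, p = 0.00781, the smallest that 8 libraries allow, adjusted p = 0.0117). Peaks per cell gave 0.566-fold, also lower in 8 of 8 libraries (exact permutation test, adjusted p = 0.0117). With libraries averaged whose type counts showed no difference by chi-square test, the log2 ratio of reads was -0.84 (n = 6, exact permutation test, adjusted p = 0.0469). In cells with a barcode of their own the reads ratio was 0.619-fold (exact permutation test, adjusted p = 0.0117). Clusters and type names were made by the authors from the accessibility of these same cells, and the part that reads per cell had in that clustering was not tested.

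**Figure D3:**
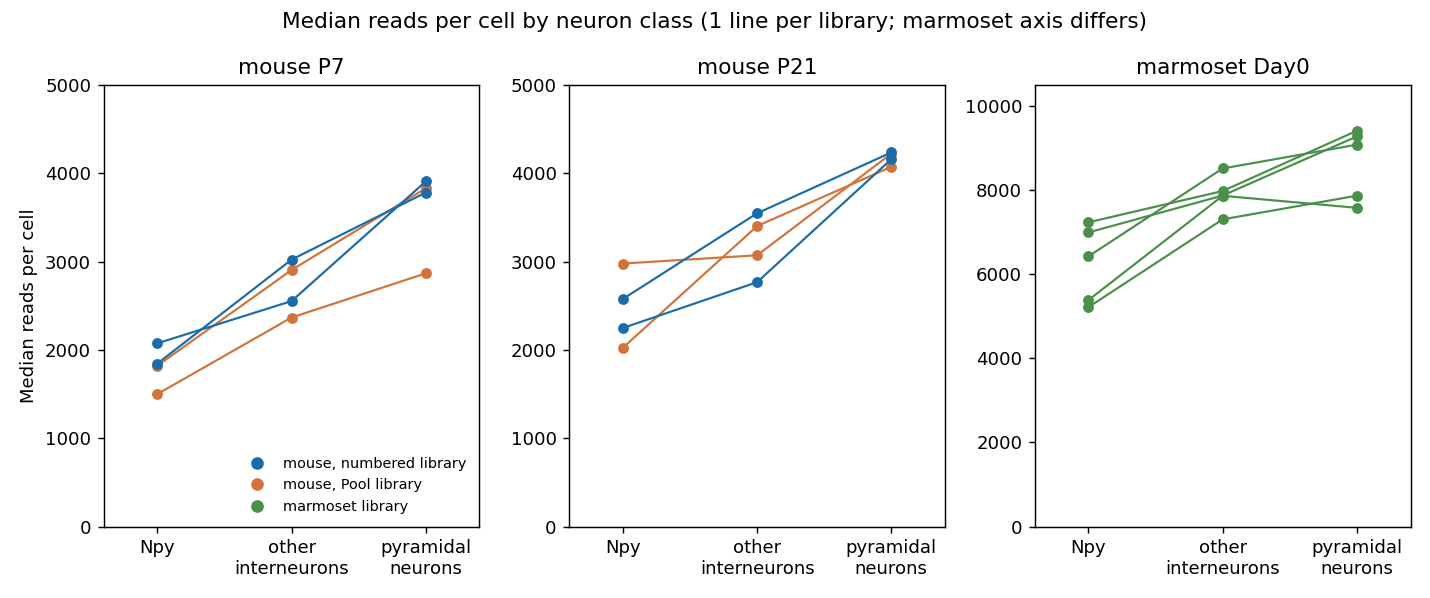
Median reads per cell of Npy cells, other interneurons and pyramidal neurons, 1 line per library, for mouse P7, mouse P21 and marmoset Day0 (the marmoset axis spans a wider range). Every line starts lower at Npy cells than at the other interneurons of its library.

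The peaks followed the reads. Npy cells had a median of 558 and 553 peaks per 1000 reads in the numbered P7 libraries, and 524 and 562 in the Pool P7 libraries. At P21 the values were 552 and 551 in the numbered libraries, and 554 and 550 in the Pool libraries. Against other neurons of the library the ratio was 1.00-fold, from 0.992 to 1.02, and lower in 4 of 8 libraries (exact permutation test, adjusted p = 0.812). Peaks per read of Npy cells were lower in each deeper quartile of reads at both ages, and within a quartile Npy cells, with all cells of an age pooled, had fewer than the other neurons in 7 of 8 mouse quartiles. In the highest P7 quartile, for example, the medians were 524 and 538 peaks per 1000 reads, and in the second P21 quartile 550 and 559. Over cells with 2000 to 6000 reads the log2 ratio was -0.0165 (exact permutation test, p = 0.0547), which did not pass.

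Against the other interneurons alone the gap was smaller. Npy cells had 0.714-fold their reads, lower in 8 of 8 libraries and from 0.595 to 0.970 (exact permutation test, adjusted p = 0.0117). At P7, where the others were somatostatin cells, the ratio was 0.611 and 0.813 in the numbered libraries, and 0.634 and 0.627 in the Pool libraries. At P21 it was 0.727 and 0.813 in the numbered libraries, and 0.595 and 0.970 in the Pool libraries. The ages overlapped, and the change of the ratio from P7 to P21, 1.15-fold, did not pass the test (exact permutation test, adjusted p = 0.555, 97.1% interval 0.732-fold to 1.59-fold). Within the barcode set that held both ages its direction reversed, to -0.12 on the log2 scale.

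By neuron type, Npy cells had the lowest median reads of the 6 named types in 4 of 4 P7 libraries. They held 0.396-fold the reads of corticothalamic neurons (CthPN), 0.460-fold those of subcerebral projection neurons (ScPN) and 0.509-fold those of callosal projection neurons (CPN). The closest P7 type was somatostatin cells at 0.671-fold ± 0.0949 (SD, n = 4). At P21 they had the lowest median of 7 types in 3 of 4 libraries. The exception was the second Pool library, where parvalbumin cells were lower, and over the 4 libraries Npy cells had 0.882-fold ± 0.178 (SD, n = 4) the reads of parvalbumin cells, ranging from 0.636 to 1.06. Npy and parvalbumin cells did not separate in reads at P21.

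The reads of single Npy cells spread widely. At P7 they ran from 1002 to 13537, with a middle range between the quartiles of 1404 to 2921. At P21 they ran from 1009 to 11578, with a middle range of 1644 to 3535. Many cells lay near the lower limit of 1000 reads. Fewer than 1500 reads were found in 29.1%, 20.9%, 50.0% and 38.9% of Npy cells of the P7 libraries, against 7.79% to 13.5% of the other neurons. At P21 the values were 18.6%, 16.2%, 32% and 10.3%, against 6.76% to 9.74% of the other neurons. In every P7 and P21 library a larger percentage of Npy cells than of other neurons lay below 1500 reads. How many Npy cells fell below the limit and were left out cannot be counted in these tables.

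**Figure D4:**
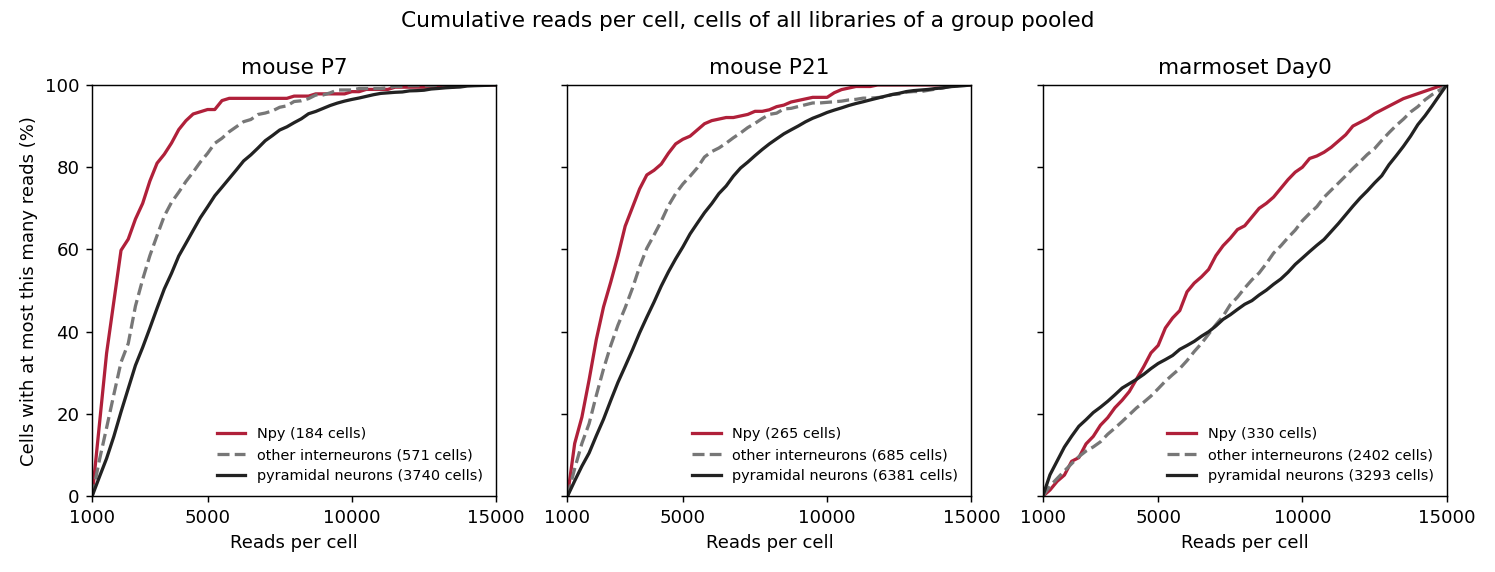
Percentage of cells with at most a given number of reads, for Npy cells, other interneurons and pyramidal neurons, with the cells of all libraries of a group pooled. In both mouse panels the Npy curve rises first. In marmoset the curve of the pyramidal neurons lies above that of NPY cells at low reads and below it at high reads.

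The share of Npy cells among neurons differed along the range of reads. In the lowest quartile of reads of all P7 neurons, 1000 to 2054 reads, Npy cells were 10.3% ± 1.58 of the neurons (SD, n = 4). In the next quartiles they were 3.53%, 2.27% and, above 5200 reads, 0.978% ± 0.428 (SD, n = 4). The lowest quartile had the highest share in 4 of 4 P7 libraries. At P21 the shares were 7.70% ± 1.84, 3.83%, 1.78% and 1.44% ± 0.945 (SD, n = 4), again highest in the lowest quartile in 4 of 4 libraries. Of the 184 P7 Npy cells, 112 lay in the lowest quartile and 11 in the highest. Of the 265 P21 Npy cells, 136 lay in the lowest and 23 in the highest.

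**Figure D5:**
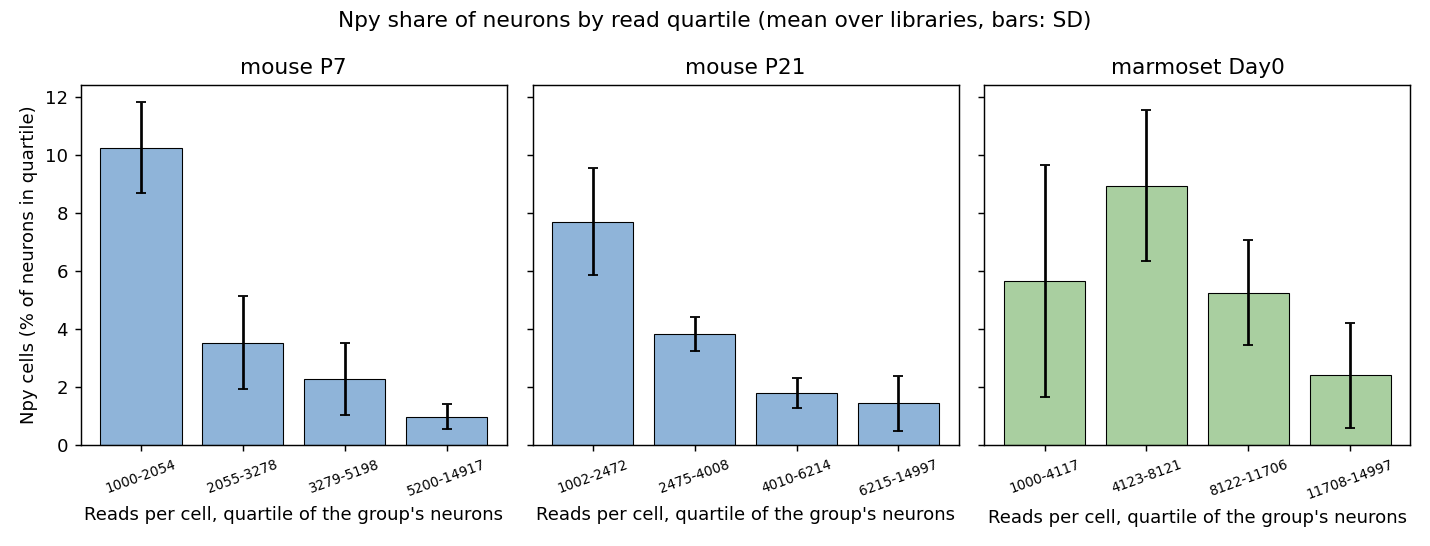
Npy cells as a percentage of neurons in each quartile of reads per cell, with quartiles set over all neurons of the group (read range under each bar). Bars are means over libraries with 1 SD. The mouse bars fall from left to right, and the marmoset bar is highest in the second quartile.

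Once cells below the median of 3444 reads were left out, Npy cells were 1.44% of neurons at P7 and 1.68% at P21, and 13.9% and 19.6% of interneurons. When every library was given the same distribution over read quartiles, the share of neurons was 3.80% ± 0.946 at P7 and 3.97% ± 0.417 at P21 (SD, n = 4).

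The difference in reads per Npy cell between P7 and P21 did not pass the test. The group means of the library medians were 1811 ± 236 at P7 and 2457 ± 415 at P21 (SD, n = 4). The highest P7 library, with 2075, lay above the lowest P21 library, with 2025, and no other pair of libraries crossed. The fold was 1.35 (exact permutation test, p = 0.0571, adjusted p = 0.229), with a 97.1% interval from 0.976-fold to 1.98-fold. Peaks per cell gave 1.34-fold (exact permutation test, adjusted p = 0.229), with medians of 1043, 1191, 815.5 and 1008 at P7 and 1424.5, 1250.5, 1131 and 1650 at P21. Peaks per 1000 reads gave 1.01-fold (exact permutation test, adjusted p = 0.971). Within the barcode set the log2 difference in reads was 0.23, against 0.43 over all libraries. In cells with a barcode of their own the reads differed by 1.46-fold (exact permutation test, p = 0.0286, adjusted p = 0.114).

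In newborn marmoset, NPY cells also had fewer reads than the other neurons. Their median reads were 5385, 5217, 6993, 7234 and 6425 in Day0 libraries 1 to 5. The other neurons of the libraries had 7685, 7582, 8630, 8671 and 8771. Libraries 1 and 2, which had the most NPY cells, had the fewest reads in NPY cells and in other neurons. The within-library ratio was 0.751-fold, lower in 5 of 5 libraries and from 0.688 to 0.834. The exact sign-flip permutation test gave p = 0.0625, the smallest that 5 libraries allow, so the design could not pass the threshold. Over libraries 1 and 2 the ratio was 0.694-fold, and over libraries 3 to 5 it was 0.791-fold. With Day0 cells pooled, 97.9% of NPY cells and 90.3% of pyramidal neurons had at most 14000 reads. The part of the upper limit of 15000 reads in the ratio was not tested.

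NPY cells had the lowest median reads of the neuron types present, 8 or 9 in a library, in 4 of 5 Day0 libraries. The exception was library 1, in which layer IV neurons were lower, with a value that rested on 2 cells. They held 0.872-fold ± 0.100 the reads of Vip cells, 0.793-fold ± 0.0826 those of parvalbumin cells and 0.714-fold ± 0.128 those of somatostatin cells (SD, n = 5), below 1 in 5 of 5 libraries for each type. Their peaks per 1000 reads were 478, 494, 527, 523 and 520, which was 0.989-fold the value of the other neurons and lower in 5 of 5 libraries. With the cells of all Day0 libraries pooled, the peaks per 1000 reads of NPY cells were also lower than those of other neurons in 4 of 4 quartiles of reads. Libraries 1 and 2, which held the most NPY cells, also had the fewest peaks per 1000 reads in their other neurons (486 and 499). Against the other interneurons alone the ratio was 1.01-fold, and lower in only 1 of 5 libraries (exact sign-flip permutation test, adjusted p = 0.125).

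The spread of reads among NPY cells is set beside that of mouse Npy cells without a test. Fewer than 1500 reads were found in 0.00% to 6.00% of NPY cells of a library, against 6.06% to 7.44% of the other neurons. The NPY share of neurons was 5.67% in the lowest quartile of reads (1000 to 4117), 8.95% in the second, 5.25% in the third and 2.41% in the highest. The second quartile had the highest share in 5 of 5 libraries.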

How the data were processed

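The 2 deposited cell tables gave counts per cell: reads, and peaks holding a read, as deposited and not divided by a depth factor. Per the study's methods, reads were aligned with Bowtie2 to mm10 or CalJac3, low-quality and duplicate reads were removed, libraries were sampled to a similar depth per cell and peaks were called with MACS2; the submitters' processing notes name mm10 and MACS2. Per the methods, cells were kept with at least 1000 reads and 300 peaks, with upper limits on both, 15000 for reads. The lowest peak counts seen were 300 (mouse) and 453 (marmoset). The treatment of doublets was not given in the sources read.

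Cells of each library and type were counted with python 3.11.15, pandas 2.3.3, numpy 2.4.6 and scipy 1.17.1. Neurons were all cells with an interneuron or pyramidal type name, and unassigned cells stayed out of denominators. Each library weighed equally. Ages were compared by exact two-sided permutation of libraries (8 comparisons, Benjamini-Hochberg adjustment, threshold 0.05), and Npy cells with other neurons of their library by exact sign flips of log2 ratios (3 ratios per species). The permutation code was tested on simulated data. Type counts of some libraries of the same age did not differ at the 0.05 threshold (chi-square test), which does not show that they were alike. In mouse these were numbered libraries 1 and 2 of P1 and of P7, Pool libraries 1 and 2 of P1 and of P21, and P7 Pool 1 and numbered 2. At marmoset Day0 these were libraries 1 and 2, 3 and 4, and 4 and 5. They were kept apart, and averaged as an alternative where every pair in a group agreed. No gene was named as a result, because the tables hold none. Other types and clusters were named only as neuron types of the same library, where they bore on a denominator or where they held the cells described. The cells and lists were chosen with earlier results of these data known.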

Additional observations from a re-analysis of the deposited data

Results flagged for a closer look

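Among the 40 sets of library values checked, 1 held a library far from the others. In the second numbered P7 library the median reads of Npy cells were 0.813-fold those of the other interneurons, whereas the nearest of the other 3 P7 libraries stood at 0.634-fold.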

How the results depend on the processing

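Over 17 results, 229 alternative values were counted as unchanged in direction and side of the threshold, 12 lost significance and 27 changed sign. In the P21 to P7 comparisons, values over the pooled cells of an age carried no test and counted as unchanged when within the SD. For results that had not passed, designs too small to pass could not change the side, so the count does not measure robustness. The lower reads and peaks of mouse Npy cells kept direction and side under each alternative tried, with log2 ratios for reads from -0.89 to -0.81 when 1 library was left out.

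The mouse share of neurons (-0.401 points from P7 to P21) changed sign with Pool libraries alone (0.202), at least the median reads (0.234) or peaks (0.211), equal read distributions (0.163) and unassigned cells in the denominator (0.295). The share of annotated cells did so under the same alternatives (0.102, 0.231, 0.220, 0.214 and 0.279). With 1 library left out they ran from -0.615 to -0.0541 and from -0.479 to -0.00614.

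In cells with 2000 to 6000 reads, the P21 to P7 log2 differences changed sign for reads (-0.0335), peaks (-0.0157), and reads (-0.13) and peaks (-0.14) against other interneurons, as did marmoset reads (0.19) and peaks (0.11) against other neurons. That range selects cells on the reads then compared, so it does not bear on their order, and only 10 to 24 Npy cells of a P7 library lay in it. Log2 peaks per 1000 reads changed sign between ages without P7 Pool 1 (-0.0151; range -0.0151 to 0.0190) and in numbered libraries (-0.0102). Against other neurons it changed sign in that range of reads (-0.0165), in cells with a barcode of their own (-0.000186) and without P7 Pool 1 or 2 (-3.74e-06 and -0.00202; highest 0.00301), and in marmoset against other interneurons (0.0128).

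The cluster 13 differences of P7 and P21 from P1 no longer passed with numbered libraries alone (1.99 and 1.97) or Pool libraries alone (1.99 and 2.57). Nor did they with libraries averaged whose type counts showed no difference by chi-square test (1.87 and 2.29). The same held for libraries of the barcode set with both ages alone (2.25 and 2.29) and for cells with at least the median reads (0.623 and 1.07). All but the last are designs too small to pass. The P21 to P7 difference was -0.0227 in numbered libraries. Within the barcode set, the P21 to P7 log2 difference changed sign for reads (-0.12) and peaks (-0.13) against other interneurons and for peaks per 1000 reads (-0.0113).

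Treating same-numbered libraries as a replicate block left 3.46 and -0.401 points for the shares of interneurons and neurons and 1.99 and 2.27 points for cluster 13, of which the last pair no longer passed (exact permutation test, adjusted p = 0.188, smallest p 0.125). Same-numbered P7 and P21 libraries of a series deviated in opposite directions (correlations -0.387 to -0.874 over 7 types). So did differently numbered libraries of the same series (-0.416 to -0.925), whereas libraries of different series deviated alike (0.400 to 0.932). Deviations were taken from the mean of the libraries of an age and cancel over them, so the positive and negative values are not separate results. Within that limit the direction went with the series and not with the number, and what the number marks was not tested. The fewest Npy cells in a library, 36 in mouse and 40 in marmoset, limit what differences could be seen.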
